A study of Drosophila melanogaster with 4 samples.

Results

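Topologically associating domains (TADs) are stretches of a chromosome whose parts contact each other more often than they contact the neighbouring stretch, and a border is the point between adjoining TADs. The borders described here were called at the same place in the contact maps of BG3 and Kc167 cells of Drosophila melanogaster and were still called in both maps at the stringent setting of the caller. They were chosen by their called positions, as autosomal BG3 borders within 20 bp of a Kc167 border and within 20 bp of a border in the stringent list of each map. The rule found 251 of 1909 BG3 borders (13.1%, 95% Wilson interval 11.7 to 14.7), which are 12.1% of the 2079 Kc167 borders. BG3 is a neuronal line of larval origin, Kc167 derives from embryos, and both were grown untreated in Schneider's medium with serum, at a higher serum share for BG3. Contacts were measured by in situ Hi-C, in which crosslinked chromatin is cut with DpnII, neighbouring ends are ligated and the junctions are sequenced. There were 2 replicates per line, merged by the authors into 1 map per line before borders were called, and the BG3 map rests on fewer read pairs than the Kc167 map. No spread between replicates enters any value, and the tests take borders as units, so that they compare classes of borders in these maps.

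In flies, many borders lie at the promoters of genes that are active in most cells, and such promoters carry short sequences bound by M1BP, by Dref at the DNA replication-related element (DRE), and by BEAF-32. Other borders are bound by insulator proteins such as CTCF and Su(Hw), which can separate an enhancer from a promoter when placed between them. GAGA factor, the product of Trl, and Zelda bind at accessible regulatory DNA.

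The following stretches show what lies at the strong conserved borders. Each was read from the RefSeq copy of the dm6 genome on the plus strand, runs from 25 bases before to 25 bases after the border and the motif, and has the motif in capitals. They are stretches free of annotated UTR in which the motif lay close to the border. The listed position of a border is the middle of its DpnII fragment, to within 3 bp, for 242 of the 251. The fragments of the 251 had a median width of 1286 bp. Distances and locations in this report are those of the listed position, and the maps do not resolve a border to the base. The first 4 hold the CTCF letters AGNTGGCGC, or GCGCCANCT where the match is on the minus strand. In chr3R:7810401-7810466 the motif was centred 10.5 bp from the border and the nearest gene was sgll, an enzyme gene of vitamin B6 metabolism, while chr3L:2852006-2852075 lies in an intron of Tet, which encodes a TET family dioxygenase. The stretch chr3R:17811862-17811933 lies in an intron of tinc and chr3L:2531438-2531511 in an intron of Spn, which encodes a scaffold protein that binds protein phosphatase 1.
CTCF motif at sgll: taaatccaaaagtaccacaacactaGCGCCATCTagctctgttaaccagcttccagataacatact
CTCF motif in Tet: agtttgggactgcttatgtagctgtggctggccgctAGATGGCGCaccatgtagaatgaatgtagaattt
CTCF motif in tinc: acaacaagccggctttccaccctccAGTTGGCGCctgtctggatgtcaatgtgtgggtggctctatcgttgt
CTCF motif in Spn: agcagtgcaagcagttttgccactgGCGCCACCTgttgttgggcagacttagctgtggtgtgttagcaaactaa
The next 3 hold the DRE letters TATCGATA, which read the same on both strands. The motif of chr3R:4906531-4906593 was centred 8 bp from the border at Gnf1, which encodes the large subunit of the clamp loader of DNA replication. In chr3R:21295774-21295917 the border lay 236 bp from the start of Hsromega, the long noncoding RNA of the heat shock response, and chr2L:248636-248815 lies in an intron of kis, which encodes a chromatin remodeller.
DRE at Gnf1: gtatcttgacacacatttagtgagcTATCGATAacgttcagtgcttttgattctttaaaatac
DRE at Hsromega: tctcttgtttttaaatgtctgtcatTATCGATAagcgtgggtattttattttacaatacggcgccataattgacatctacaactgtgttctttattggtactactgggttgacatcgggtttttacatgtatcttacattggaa
DRE in kis: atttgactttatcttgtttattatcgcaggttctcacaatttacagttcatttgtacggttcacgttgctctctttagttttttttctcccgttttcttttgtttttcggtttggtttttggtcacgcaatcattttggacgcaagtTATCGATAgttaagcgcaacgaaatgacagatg
The M1BP letters GGTCACACT, or AGTGTGACC on the minus strand, stand in chr3R:14697305-14697479 beside Meltrin, a gene of a membrane metalloprotease, and in chr3L:7911975-7912229 beside pbl, whose product acts in cytokinesis.
M1BP motif at Meltrin: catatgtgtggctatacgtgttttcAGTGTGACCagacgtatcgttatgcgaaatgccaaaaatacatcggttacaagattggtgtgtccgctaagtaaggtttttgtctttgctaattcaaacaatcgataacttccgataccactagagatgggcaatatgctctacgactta
M1BP motif at pbl: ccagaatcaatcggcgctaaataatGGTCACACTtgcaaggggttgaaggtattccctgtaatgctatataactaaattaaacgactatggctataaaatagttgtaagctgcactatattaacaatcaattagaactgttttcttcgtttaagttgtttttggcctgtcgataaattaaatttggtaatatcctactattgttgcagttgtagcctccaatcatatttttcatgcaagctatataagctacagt
The last stretch, chr3L:542932-543059, is the whole interval between the start of Cypl, a cyclophilin gene read to the left, and that of Hipk, a protein kinase gene read to the right. It holds none of the 7 motifs searched, and the border lies at its base 86.
Interval between Cypl and Hipk: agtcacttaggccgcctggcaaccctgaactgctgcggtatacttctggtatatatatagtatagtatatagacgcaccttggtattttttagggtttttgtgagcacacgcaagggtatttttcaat

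The rule allowed 20 bp, and all 251 borders lay at the identical base in all 4 lists. Positions follow the restriction fragments, so borders called in the same fragment share their base by construction. Just outside the limit, the closest BG3 borders lay 67 bp (3L), 99 bp (2R) and 141 bp (3R) from a Kc167 border, and 9 in all lay between 20 and 200 bp. The 251 are part of 552 conserved borders. Of the rest, 32 were strong in BG3 alone, 112 in Kc167 alone and 157 in neither, and these 301 are called weak conserved borders here. By arm, the strong conserved borders made up 15.4% of the BG3 borders of 2L (60), 11.3% of 2R (48), 10.7% of 3L (56), 15% of 3R (82) and 20.8% of chromosome 4 (5 of 24, interval 9.24 to 40.5). The same rule was met by 28 of 346 BG3 borders on X (8.09%), which are not among the members. BG3 comes from a male and Kc167 from a female, and the paper left out the sex chromosomes because of dosage compensation. The X share is therefore not a like comparison with the autosomal shares.

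The TAD separation score, which the authors' caller gives each border and which is lower where fewer contacts cross it, varied widely among the strong conserved borders. In BG3 it ran from -0.752 through a median of -0.0547 to 0.499, and in Kc167 from -0.872 through -0.0790 to 0.750. The other autosomal borders had medians of 0.00677 in BG3 and -0.0202 in Kc167. The stringent call asks for a larger difference of this score at a border than the permissive call, and not for a low score as such. The listed scores are thus not the measure of a strong border. They come from the same calls as the choice and were not tested. Only 88 (35.1%) were in the lowest quartile of BG3 scores and 86 (34.3%) in that of Kc167 scores, with 64 in both. The rest had higher scores, and 74 scored above 0 in both maps. The scores of the maps went together over the 251 borders, with Pearson's r of 0.785 and Spearman's rank correlation of 0.783, and within the 4 large arms r ran from 0.714 to 0.815. All points share the same 2 maps, and the 301 weak conserved borders gave r of 0.832. The Kc167 score was the lower one at 153 borders and the BG3 score at 98.

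**Figure D1:**
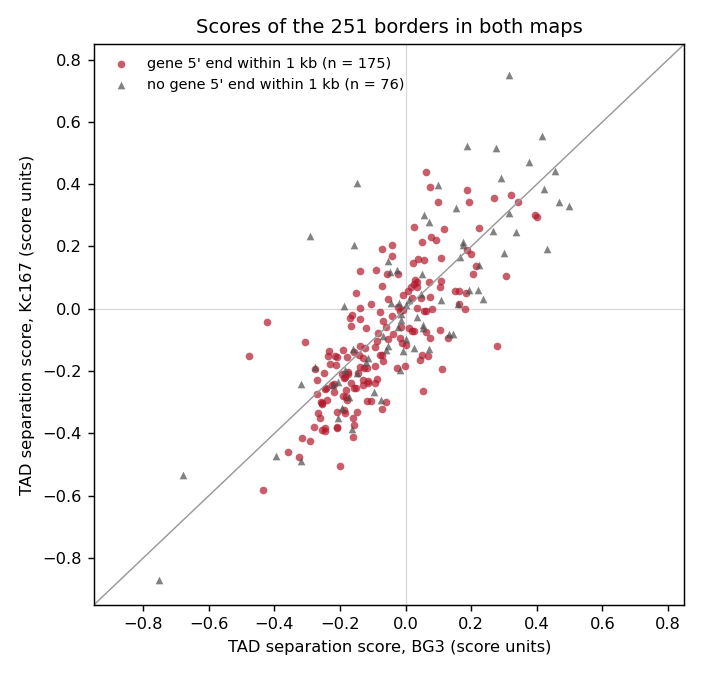
TAD separation scores of the 251 strong conserved borders, with the BG3 score on the horizontal and the Kc167 score on the vertical axis, both in the score's own units, and the line of equal scores. Circles are the 175 borders with a protein-coding gene 5′ end within 1 kb and triangles the 76 without, and most points lie along the line with both kinds on either side of 0.

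The 8 borders with the lowest mean rank of score over both maps were of several kinds. The deepest in both was at 3170247 on 3R, with scores of -0.752 in BG3 and -0.872 in Kc167, in an intron of Pzl, a gene of the Piezo family of mechanosensitive channels, 93335 bp from any protein-coding 5′ end. The next, at 1471505 on 2R (-0.678 and -0.532), was also far from genes, 55590 bp from Maf1, a repressor of RNA polymerase III. Both lie in the proximal part of their arm, toward the centromere. On chromosome 4 the border at 696665 (-0.436 and -0.580) lay between myo, a TGF-beta family ligand gene read away from it at 610 bp, and ey, the Pax6 gene of eye development, at 1024 bp. The border at 21378013 on 3R (-0.359 and -0.460) lay between mod(mdg4), itself a gene of insulator proteins, at 612 bp, and tin, a homeobox gene of heart development, at 964 bp. At 15973173 on 3R (-0.316 and -0.416) the neighbours were mor, a subunit of the Brahma chromatin remodelling complex, at 260 bp, and Hel89B, a helicase gene, at 125 bp. The other 3 lay 3271 bp from bor, a mitochondrial ATPase gene (-0.395 and -0.474), 904 bp from CG10874 (-0.325 and -0.477), and in an intron of rdhB, 1376 bp from Sar1, a GTPase gene of vesicle transport (-0.320 and -0.490). The borders with a gene start within 1 kb had median scores of -0.0838 in BG3 and -0.117 in Kc167, and those without one had 0.00579 and 0.0166.

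Gene starts were the commonest feature of these borders. A protein-coding 5′ end lay within 1 kb of 175 of the 251 (69.7%, 63.8 to 75.1), where 16.8% of all autosomal windows of 1 kb have one that close. The share was 79.7% at weak conserved borders, 50.0% at the 208 fuzzy borders strong in BG3, which are shifted by over 20 bp and up to 2 kb between the maps, and 30.8% at the 825 strong borders specific to BG3 or to Kc167, with no border of the other map within 2 kb. It was thus lower than at weak conserved borders by 10.0 percentage points (interval 2.76 to 17.3, Fisher's exact test, two-sided, Benjamini-Hochberg adjusted over 39 tests, adjusted p = 0.0270). By the same exact test it was higher than at fuzzy borders by 19.7 points (10.7 to 28.3, adjusted p = 1.45e-04) and than at specific borders by 38.9 points (32.2 to 45.1, adjusted p = 2.38e-26). In the exact test the difference from weak conserved borders did not pass without the proximal 5 Mb of each large arm and chromosome 4 (adjusted p = 0.223), within 2 kb (0.0977) or among borders in restriction fragments of at least 1 kb (0.713). The differences from the fuzzy and specific classes passed under each of these.

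**Figure D2:**
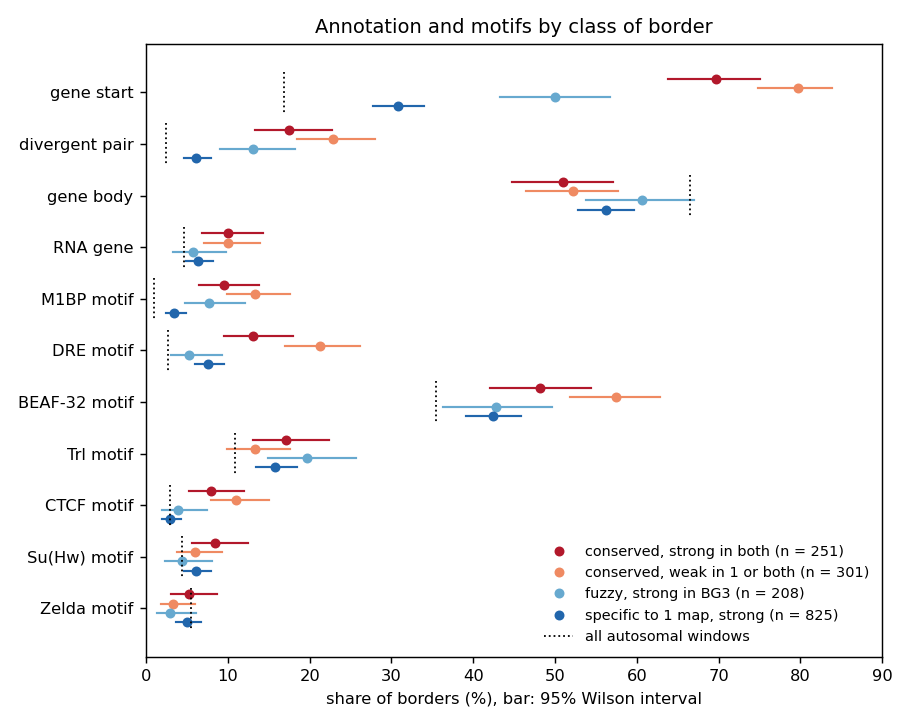
Share of borders in percent (horizontal axis) with each annotation feature or motif (vertical axis) in the 4 classes of border, with 95% Wilson intervals as bars and the share of all autosomal 1 kb windows as dotted lines. Gene starts fall from 79.7% at weak conserved and 69.7% at strong conserved borders to 30.8% at specific ones, whereas the Zelda motif lies between 2.88% and 5.18% in all classes.

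The nearest gene was more often read away from the border than toward it. Of the 175 nearest genes within 1 kb, 60 were minus-strand genes starting on the left and 41 plus-strand genes starting on the right, while 35 plus-strand starts lay on the left and 39 minus-strand ones on the right. The median distance to the nearest protein-coding 5′ end was 476 bp, with 129 borders within 500 bp and 63 within 200 bp, and 41 had none within 5 kb. By listed position, 123 of the 251 lay between genes, 63 in an intron, 45 in a 5′ UTR, 15 in a coding exon and 5 in a 3′ UTR. The share inside a protein-coding gene, 51.0%, was below the 66.5% of all windows, and it did not pass Fisher's exact test against any class (differences of -1.16 points from weak conserved, -9.58 from fuzzy and -5.25 from specific borders, adjusted p = 0.841, 0.133 and 0.240). In the 500 bp to the left of the borders stood 64 minus-strand and 30 plus-strand 5′ ends. The 500 bp to the right held 46 plus-strand and 27 minus-strand ones. The other classes leaned the same way. At weak conserved borders the left window held 101 minus-strand and 41 plus-strand ends, and the right window 105 plus-strand and 44 minus-strand ends. In that order the counts were 27, 18, 29 and 10 at fuzzy borders, and 74, 39, 61 and 40 at specific ones. The lean is thus not particular to strong conserved borders, and its size was not tested between classes.

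**Figure D3:**
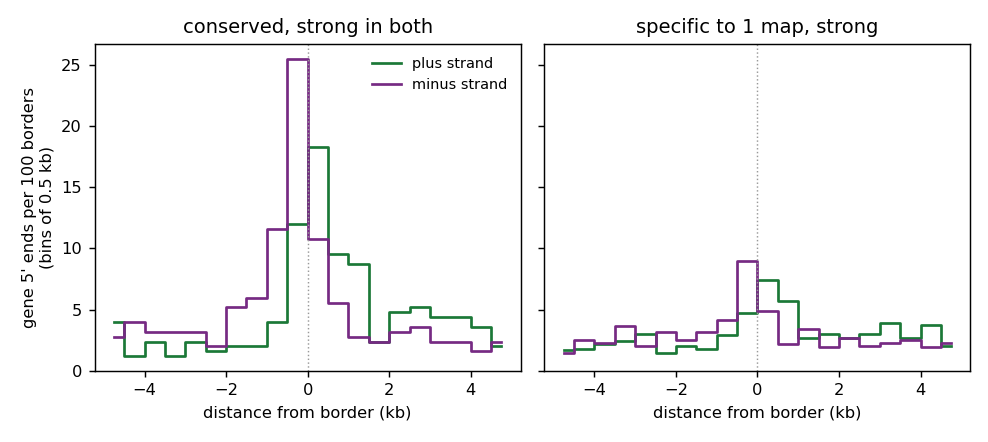
Protein-coding 5′ ends per 100 borders in bins of 0.5 kb (vertical axis) against the distance from the border in kb (horizontal axis), by strand, at the 251 strong conserved borders and at the 825 strong specific borders. At strong conserved borders the minus strand peaks at 25.5 on the left and the plus strand at 18.3 on the right.

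A divergent pair, with a minus-strand 5′ end within 2 kb on the left and a plus-strand one within 2 kb on the right, flanked 44 of the strong conserved borders (17.5%), against 2.44% of all windows. At specific borders the share was 6.06%, lower by 11.5 points (interval 6.88 to 16.8, Fisher's exact test, adjusted p = 2.98e-06). A pair needs gene starts nearby, whose share also differed, and pairs were not compared among borders with a gene start alone. The exact test did not separate the 17.5% from the 22.9% of weak conserved borders (difference -5.39 points, -12.0 to 1.40, adjusted p = 0.234) or the 13.0% of fuzzy ones (4.55 points, -2.17 to 11.0, adjusted p = 0.284). The starts of a pair were a median of 868 bp apart, from 129 to 2643 bp. The 8 closest pairs join genes of unlike roles. Cypl and Hipk, whose interval is printed above, start 86 and 43 bp from their border, and its scores were -0.072 in BG3 and 0.074 in Kc167. Jupiter, a microtubule-binding protein gene, and CG14710 start 103 and 81 bp from theirs (scores -0.246 and -0.257), and CG32147 and Pex3, a gene of peroxisome formation, 169 and 127 bp (-0.25 and -0.205). CG33203 stood opposite Doa, a kinase gene of splicing control (248 and 116 bp), and CG42637 opposite SREBP, the activator gene of lipid synthesis (193 and 173 bp). The starts of mor and Hel89B, already named, were 385 bp apart. Pop4, a subunit of RNase P, stood opposite nmo, the Nemo kinase (234 and 162 bp), and Mcr opposite Bsg, both genes of membrane or secreted proteins (264 and 174 bp). Of these 8 borders, those at Doa, SREBP, mor, Pop4 and Mcr scored below 0 in both maps, as did those at Jupiter and Pex3, while the border of Cypl and Hipk had opposite signs.

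The 5′ ends within 1 kb belonged to 244 of 11749 autosomal protein-coding genes (2.08%), with 1 such gene at 111 borders, 2 at 59 and 3 at 5. Against that 2.08%, the gene lists gave small counts. Of 77 genes of the cytoplasmic ribosome, 5 (6.49%) started there, among them RpS23 at 12 bp from its border, RpS9 at 100 bp, RpL30 at 261 bp and RpS16 at 579 bp. The respiratory chain had 3 of 78 (UQCR-Q at 299 bp, RFeSP at 324 bp and ATPsynC at 540 bp). Translation initiation had 2 of 37, eIF4G2 at 32 bp and eIF4E1, the cap-binding factor, at 390 bp. Mediator, which links activators to RNA polymerase II, had 2 of 23 (MED15 at 637 bp and MED25 at 908 bp), and general transcription had 1 of 49 (TfIIEalpha at 573 bp). The mitochondrial ribosome had 1 of 62 (mRpL13, 223 bp) and the tRNA synthetases 1 of 30 (ArgRS-m, 84 bp). Of the dpr and DIP cell-surface proteins of neurons, 2 of 27 (7.41%) started there (dpr2 at 182 bp and DIP-epsilon at 760 bp), of developmental transcription factors 1 of 68 (tin), of axon guidance and adhesion genes 1 of 42 (unc-5, a netrin receptor, 865 bp), and of architectural protein genes 1 of 23 (mod(mdg4)). None of 42 proteasome, 30 splicing, 154 chemoreceptor or 110 cuticle genes did. No list was tested, since this group of borders and the lists were chosen with earlier results of these data known.

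Genes for RNAs that are not translated started within 1 kb of 25 of the strong conserved borders (9.96%), against 4.59% of all windows, and no test against another class passed (9.97% of weak conserved, 5.77% of fuzzy and 6.30% of specific borders, with adjusted p of 1.0, 0.215 and 0.176 by Fisher's exact test). Of the 31 annotated entries, many sit inside the protein-coding genes named above. All 5 snoRNAs, which guide the modification of ribosomal RNA, lay within 3 ribosomal protein genes, RpS16, RpS9 and RpL30, mir-308 lay within RpS23 and mir-4949 within ATPsynC.

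Among the motifs, M1BP, DRE and CTCF separated the strong conserved borders from specific ones. A motif was counted where it lay wholly within 500 bp of the border on either strand. GGTCACACT of M1BP was at 24 borders (9.56%, against 0.966% of all windows and 8.09% of the 1 kb windows around protein-coding 5′ ends), and at 3.39% of specific borders (difference 6.17 points, 2.78 to 10.6, Fisher's exact test, adjusted p = 0.00156). TATCGATA of the DRE was at 33 (13.1%, against 2.64% of windows and 11.2% at 5′ ends), above the 5.29% of fuzzy borders (exact test, adjusted p = 0.0181) and the 7.52% of specific ones (adjusted p = 0.0270), and below the 21.3% of weak conserved borders (difference -8.12 points, -14.3 to -1.75, adjusted p = 0.0439). Of the main tests that passed, this last one was closest to the threshold, with p = 0.0135 in the exact test before adjustment. The adjustment includes the tests of fragment width, which is tied to the rule, and they lower the other adjusted values. Without them, adjusting the p-values of the other features puts this DRE difference above 0.05, so its passing rests on their inclusion. AGNTGGCGC of CTCF was at 20 (7.97%, against 2.88% of windows and 3.54% at 5′ ends), and at 2.91% of specific borders (difference 5.06 points, 1.98 to 9.19, exact test, adjusted p = 0.00436). These calls depended on the setting. Without the proximal regions and chromosome 4, DRE passed the exact test against no class (adjusted p from 0.0900 to 0.132) and CTCF against specific borders had adjusted p = 0.0518, while within 250 bp M1BP against specific borders had 0.0724.

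No difference passed for the other 4 motifs. CGATA at 2 or more places, taken for BEAF-32, was at 48.2% of the strong conserved borders (35.4% of windows), 57.5% of weak conserved (difference -9.27 points, -17.5 to -0.911, Fisher's exact test, adjusted p = 0.0972), 42.8% of fuzzy and 42.4% of specific ones. TATCGATA contains CGATA on both strands, so every DRE match also counts there. GAGAGAG of GAGA factor was at 17.1% (10.8% of windows) and between 13.3% and 19.7% of the other classes, GCATACTT of Su(Hw) at 8.37% (4.42% of windows) and between 4.33% and 6.06%, and CAGGTAG of Zelda at 5.18% (5.43% of windows) and between 2.88% and 4.97%. At 77 strong conserved borders none of the 7 motifs was found.

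The motifs split by gene start. All 24 strong conserved borders with the M1BP motif were among the 175 with a gene start within 1 kb, and 0 of the 76 without one had it, a share whose Wilson interval reaches 4.81%. DRE matches stood at 27 with and 6 without a gene start. Autosomal windows divided in the same direction, with the M1BP letters in 3.70% of those with a gene start and 0.415% of those without, and the DRE letters in 5.98% and 1.96%. CTCF went the other way, with 7 of 175 (4.0%, 1.95 to 8.03) and 13 of 76 (17.1%, 10.3 to 27.1), and 1 border had CTCF together with M1BP or DRE. The CTCF letters are in 3.60% of windows with and 2.73% of windows without a gene start. Classes were then compared among borders without a gene start, a split chosen after these counts were seen. CTCF was there at 17.1% of strong conserved, 24.6% of weak conserved, 4.81% of fuzzy and 2.45% of specific borders. Fisher's exact test gave adjusted p of 0.460 against weak conserved, 0.0404 against fuzzy and 2.06e-05 against specific borders. The fragment width tests stayed in that adjustment, and whether the difference from fuzzy borders passes without them was not computed. At borders with a gene start, the CTCF share of 4.0% faced 3.94% at specific borders (exact test, adjusted p = 1.0), the M1BP share of 13.7% faced 9.84% (adjusted p = 0.453), and the DRE share of 15.4% faced 17.7% (adjusted p = 0.866). There the DRE share was below the 26.2% of weak conserved borders (exact test, adjusted p = 0.0398, fragment width tests included in the adjustment). Whether that difference passes without the fragment width tests was not computed.

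**Figure D4:**
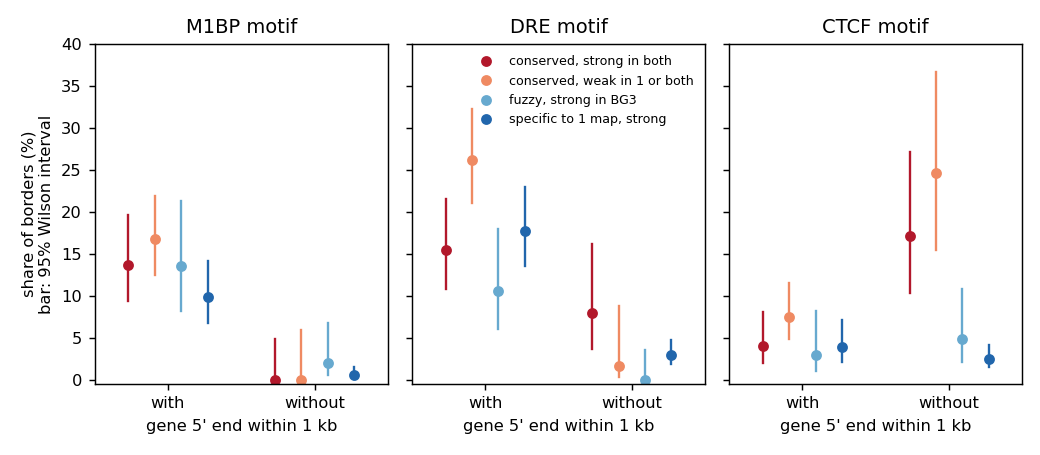
Share of borders in percent (vertical axis) with the M1BP, DRE or CTCF motif within 500 bp, for borders with and without a protein-coding 5′ end within 1 kb (horizontal axis), in the 4 classes, with 95% Wilson intervals as bars. M1BP matches lie almost wholly at gene starts, and the CTCF share is highest at weak (24.6%) and strong (17.1%) conserved borders without a gene start.

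Of the 13 CTCF borders without a gene start, 8 lay inside a protein-coding gene and 5 between genes. They include an intron of EcR, the ecdysone receptor, with 4 copies of the letters (scores 0.047 in BG3 and 0.049 in Kc167), an intron of Eip75B, an ecdysone-induced nuclear receptor gene (0.154 and 0.322), and an intron of Abd-B, the Hox gene of the bithorax complex, 2767 bp from its 5′ end (-0.022 and -0.059). Others were in introns of Tet (0.469 and 0.342), Spn (0.422 and 0.384) and Svil, an actin-binding protein gene (0.432 and 0.193), in a 5′ UTR of ush, a cofactor gene of GATA factors (-0.015 and -0.036), and in a coding exon of otp, a homeobox gene (0.025 and -0.126). The median score of all 20 CTCF borders was -0.00450 in BG3 and -0.0135 in Kc167, that of the 24 M1BP borders -0.129 and -0.0880, and that of the 33 DRE borders -0.0910 and -0.0320. These genes were singled out after their values were seen. Of the 76 borders without a gene start, 35 lay between genes and 33 in an intron, 18 lay in the proximal regions or on chromosome 4, and 13 had the start of a further annotated transcript within 1 kb.

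Strong conserved borders lay in wide restriction fragments. The DpnII fragment that holds the border had a median width of 1286 bp, compared with 876 bp at weak conserved, 628 bp at fuzzy and 665 bp at specific borders, and 199 bp over all autosomal fragments. The authors' bins had a set minimum distance between cut sites and a larger median width than that. The 199 bp is therefore not a like baseline for the places where a border could be called. Fragments of at least 1 kb held 62.9% of the strong conserved borders, 42.9% of the weak conserved, 30.3% of the fuzzy and 31.3% of the specific ones, and 35.4% of autosomal bases. Borders are placed by fragment, at the middle of it to within 3 bp for 242 of the 251, so the width is tied to what counts as the same position and is given without a test. Among fragments of at least 1 kb, the gene start share was 69.6% at strong conserved and 39.1% at specific borders (adjusted p = 7.11e-08 by Fisher's exact test), and among narrower ones it was 69.9% and 27.0% (adjusted p = 2.49e-13). The divergent pair share also passed the exact test in both bands (adjusted p = 0.00953 and 5.97e-04). The CTCF share against specific borders passed it in neither (exact test, adjusted p = 0.484 and 0.269), nor did the DRE share (0.587 and 0.164). The GC content within 500 bp was 39.6% in the median and between 40.5% and 40.7% in the other classes (permutation test of medians, two-sided, 100000 resamples, adjusted p from 0.179 to 0.189). The part of fragment width in the motif differences was not tested further.

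**Figure D5:**
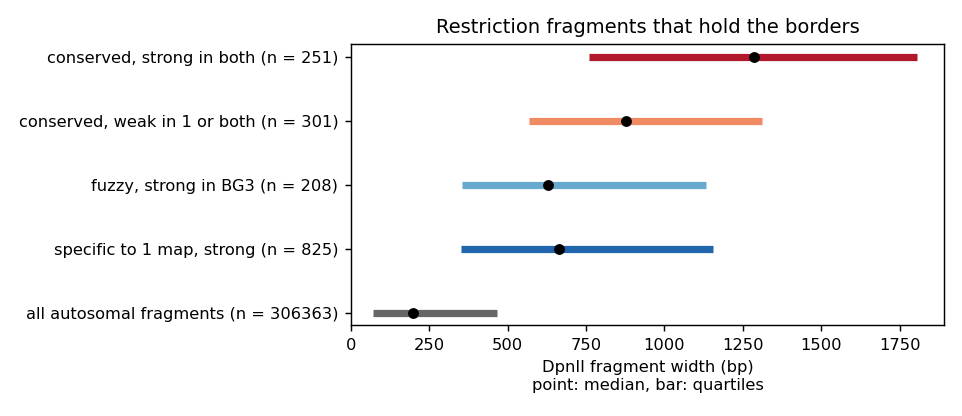
Width in bp (horizontal axis) of the DpnII fragment that holds the border, by class of border and for all autosomal fragments, with the median as a point and the quartiles as a bar. Strong conserved borders have the widest fragments of the classes shown, with a median of 1286 bp. The median of all fragments, 199 bp, is below that of the authors' bins in which borders were called.

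Loops are pairs of 2 kb bins with more contacts than their surroundings, and the share of these borders at a loop depended on how near an anchor had to be. With anchors extended by 1 kb, a loop anchor held 21 of the 251 in BG3 (8.37%, 5.54 to 12.5) and 28 in Kc167 (11.2%, 7.83 to 15.7), and 10 had one in both maps (3.98%, 2.18 to 7.18). In either map it was 15.5% of strong conserved, 10.3% of weak conserved, 17.8% of fuzzy and 10.5% of specific borders. With anchors extended by 5 kb, the strong conserved borders had a loop at 25.9% in BG3, 32.3% in Kc167 and 41.4% in either, and the last share was 36.2% at weak conserved, 43.3% at fuzzy and 26.9% at specific borders. With the 1 kb extension and in both maps at once it was 0.997% of weak conserved, 4.33% of fuzzy and 1.58% of specific borders. Loops come from the same maps as the borders, so these shares were not tested. With anchors extended by 1 kb, the loops at strong conserved borders numbered 26 in BG3 and 32 in Kc167. Of these, 14 in BG3 and 12 in Kc167 were also called in the other map, with a tolerance of 10 kb. A shared loop therefore need not have the same 2 kb anchors in both maps. With the 1 kb extension none of the 771 BG3 or 1126 Kc167 autosomal loops had a strong conserved border at both anchors. Loops that join points farther from both borders are counted below. By the ratio of observed to expected contacts, the highest shared one spanned 30 kb on chromosome 4 from the border near gw, whose product acts in microRNA silencing, with 39 observed against 2.70 expected contacts in BG3 and 42 against 2.98 in Kc167. The shared loop ending at Gnf1 had 57 against 12.0 in BG3 and 110 against 25 in Kc167 contacts. A loop ending near osa, a gene of the Brahma remodelling complex, had 47 against 16.6 in BG3 and 95 against 29.9 in Kc167. Another shared loop, of 42 kb, ended near Glyp, the glycogen phosphorylase gene (39 against 14.4 in BG3 and 50 against 9.80 in Kc167). A loop of 16 kb ended near Galphaq, a G protein subunit gene (56 against 19.7 and 150 against 41.5). A loop of 26 kb on 3R ended at the border that lies 7917 bp from CG11317 (21 against 2.94 and 32 against 4.41). In BG3 alone, the border of Cypl and Hipk held an anchor of a pair 2238 kb apart with 174 observed against 5.61 expected contacts, and the border at Yod1 held an anchor of one 4770 kb apart with 28 against 4.43. In Kc167 alone, a pair 208 kb apart on 3L, at the border that lies 28901 bp from mRpS5, rested on 12 contacts against 0.504.

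Some neighbouring strong conserved borders enclosed a TAD that both maps left whole. Over 246 neighbouring pairs the median distance was 230 kb, from 11.5 to 2522 kb, with a median of 3 BG3 and 4 Kc167 borders in between. Kc167 had more borders in between at 109 pairs, BG3 at 59, and the numbers were equal at 78. No other border lay between in either map at 33 pairs, a median of 33.4 kb apart with a median of 3 protein-coding 5′ ends. The narrowest spanned 11.5 kb on 2L with the starts of CG15130 and CG31688, 17.7 kb on 2L with CG3294 and slf, and 17.9 kb on 2L with MED15, ush and cbt. The widest spanned 107 kb on 3L with 10 starts, among them verm and serp, chitin deacetylase genes of the trachea, 83.7 kb on 3R with 22 starts, among them Rpn5, a proteasome subunit gene, and Hat1, a histone acetyltransferase gene, and 62.8 kb on 2L with 8 starts, among them Glyp and aop, a repressor gene of the Ras pathway. In 6 of the 33, a loop joined points within 10 kb of both borders in both maps, and in 1 more in each map alone. One of these is the 36.6 kb TAD on chromosome 4 between the border near gw and the border between myo and ey, which spans the loop described above. TADs beside a strong conserved border were 41.4 kb wide in the BG3 median and 37.5 kb in that of Kc167, where other autosomal TADs had 44.4 and 40.2 kb.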

How the data were processed

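In situ Hi-C libraries of BG3 and Kc167 cells, 2 replicates each, were aligned and merged by the authors. Per the labels, the processing notes of the submitters list BWA (0.7.15-r1140), Juicer (1.7.6) and the dm6 build. The authors called TADs with HiCExplorer, once permissively and once stringently, and loops with HiCCUPS. The deposited TAD lists give positions and a TAD separation score, which belongs to the border at the start of each TAD. The deposited loop lists give observed contact counts, expected contacts as the authors' signal over the donut neighbourhood, and q-values.

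Borders were the unique TAD ends on the autosomes. Annotation was Ensembl release 115, and a gene start is the 5′ end of a gene as annotated there. Shares were compared by Fisher's exact test and medians by permutation, with Benjamini-Hochberg adjustment over 39 tests (13 features in 3 classes) at 0.05. Fragment width is tied to the rule and is given without its tests, and 9 of the other tests passed. The fragment width tests stayed among the 39, and their small p-values lower the other adjusted values. Without them the DRE difference from weak conserved borders would not pass. Intervals are 95% Wilson intervals for shares, and for differences of shares intervals combined from them by Newcombe's method, and cover counting error only. The tests were checked on simulated data. Python 3.11.15, NumPy 2.4.6, SciPy 1.17.1, pandas 2.3.3 and Matplotlib 3.10.9 were used.

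Named borders were the 8 of lowest mean score rank, the 8 closest divergent pairs, up to 6 genes per list, up to 4 borders per motif (sequences outside 2R and UTRs), up to 6 shared loops and 4 per map, the 3 widest and narrowest undivided TADs, and those nearest the 20 bp limit. The members, the 15 lists and these rules were chosen with earlier results of these data known, a limit that also holds for the tests on these members. Read depth per replicate is not in the lists, so depth limits were not computed. Alternatives varied windows, classes, regions and annotation.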

Additional observations from a re-analysis of the deposited data

How the results depend on the processing

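No paired analysis was possible because the replicates of each line were merged into 1 map before borders were called, and for the same reason no replicate could be left out. Requiring the identical base in all 4 lists selected the same borders, so its 39 results repeat the main ones and say nothing of stability. Of 264 results with a test under the 16 other settings, fragment width left out, 168 were set in advance and 96 added after the data were seen. Among them 226 kept their side of the threshold, 203 with the same direction and 23 without it, the latter past the threshold in neither setting. The cause of the others was not tested. The fragment width tests stayed in the adjustment under each of these settings, and whether single results pass without them was not computed. Differences below are strong conserved minus the named class, in percentage points.

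The gene start difference from weak conserved borders was -6.27 without the proximal 5 Mb of each large arm and chromosome 4, -7.23 within 2 kb and -4.02 in fragments of at least 1 kb, and none of these passed. For DRE against weak conserved borders, the differences that did not pass were -8.03 without the proximal regions, -6.92 within 1 kb, -3.13 in fragments of at least 1 kb and -12.6 in narrower ones, and at borders without a gene start the difference turned to 6.26. For DRE against fuzzy borders they were 7.29 without the proximal regions, 2.18 against all fuzzy BG3 borders, 4.20 within 250 bp, 4.85 at gene starts, and 10.7 and 5.62 in wide and narrow fragments. For DRE against specific borders they were 4.79 without the proximal regions, 4.34 against Kc167-specific borders, 3.93 within 250 bp, 4.92 without a gene start, and 3.07 and 5.83 in wide and narrow fragments, and at gene starts the difference turned to -2.29. For M1BP against specific borders they were 2.72 within 250 bp, 3.87 at gene starts and 5.27 in wide fragments, and without a gene start it turned to -0.525. For CTCF against specific borders they were 4.88 without the proximal regions, 4.46 against BG3-specific borders, 0.0630 at gene starts, and 4.31 and 2.71 in wide and narrow fragments.

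Differences that passed only under another setting were -11.9 for gene bodies, 4.36 for Su(Hw) and -1.25 for GC content against all fuzzy borders, 10.2 for BEAF-32 against BG3-specific borders, -9.85 for divergent pairs within 5 kb, -16.4 for BEAF-32 within 250 bp and -2.15 for GC content within 1 kb, the last 3 against weak conserved borders, and 12.3 for CTCF against fuzzy borders without a gene start. With loop anchors extended by 5 kb, 25.9% of the strong conserved borders were at a BG3 loop, 32.3% at a Kc167 loop, 16.7% at both and 41.4% at either. Within 2 kb the gene counts rose to 8 for the cytoplasmic ribosome, 3 for the mitochondrial ribosome and for developmental transcription factors, 2 for the proteasome, tRNA synthetases and axon guidance, and 1 for splicing, chemoreceptors and cuticle.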
